A study of Mus musculus with 12 samples.

Results

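Parietal cells, the acid-secreting cells of the stomach, store the proton pump in internal membranes called tubulovesicles and move it to the apical surface when stimulated. The genes described here encode proteins of that traffic and of the cytoskeleton beneath the apical membrane, in fundic mucosa of mice with and without gastrin. They were chosen by symbol, as all probe sets annotated to Ezr, Lasp1, Rab11a, Rab25, Vamp2, Vamp8, Stx3, Hip1r, Cttn and Mal. These 10 genes, of 12393 with a symbol of their own on the array, had 30 probe sets. A probe set pools several short oligonucleotides that read the same transcript.

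Total RNA from mucosal scrapings of the gastric fundus was hybridised to 12 one-colour arrays, with 3 arrays for each of 4 genotypes or treatments. One set came from the wild type. Another pair came from the gastrin knockout, given either saline or gastrin by infusion over 1 week. The last came from a double knockout of gastrin and CCK (cholecystokinin). The saline-infused mice were males, 2 months of age, and no age or sex is given here for the others. Wild-type RNA came from about 2 to 4 mice. Nothing in the labels states whether arrays of one group stem from different animals, so each p-value reflects the variation among these arrays alone, and that may be technical. No infusion is described for wild-type and double-knockout mice, so infusion and genotype cannot be told apart where such a group is set against an infused one. The labels describe no sorting of cells. A lower value in such bulk tissue can come from fewer cells of a type or from less RNA per cell, which cannot be told apart.

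In the resting parietal cell, small GTPases of the Rab family mark the recycling membranes that carry the pump. Fusion with the apical membrane runs through SNARE proteins, in which a vesicle protein (VAMP) pairs with a syntaxin on the target membrane. Ezrin links that membrane to actin filaments, and LASP1, cortactin and HIP1R act on actin or on the coat of vesicles that are taken up again. Most of these proteins also work in other epithelial cells. Gastrin drives acid secretion mainly through histamine from enterochromaffin-like cells and maintains the fundic epithelium.

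Arrays had alike medians, between 403 and 421, and between 5.56% and 6.44% of their values lay below 0. Values are intensities in arbitrary units. The noise of an array, taken as its lowest percentile (1) with the sign turned, lay between 67 and 96. Parietal markers were abundant in all 4 groups: Atp4a, the catalytic subunit of the pump, read at least 35107 on every array, and Atp4b at least 47678. In the double knockout bright probe sets were lower as a class. Of 603 probe sets with a mean intensity of 10000 or more, the median log2 change was -0.29 against wild type and -0.32 against the saline-infused knockout, whereas the median over all probe sets was 0.0 in both. Surface mucous markers summed to between 230962 and 247640 in the double knockout and to between 317458 and 393591 elsewhere. Chief cell markers (5 genes) summed to between 150425 and 160525 there and to 209579 or more elsewhere. Smooth muscle and stromal markers (10 genes) summed to between 7386 and 14322 there, between 17246 and 19392 in wild type, between 9735 and 18297 with saline and between 17844 and 39255 with gastrin. Parietal markers (12 of 14 listed genes measured) summed to between 147287 and 156176 in the double knockout, between 159081 and 188197 in the saline-infused knockout and at 205312 or more in the groups with gastrin. The surface mucous, chief cell and parietal sums and the class of bright probe sets were lower in the double knockout. Single parietal markers differed from their sum. By the brightest probe set of each of the 12, 8 lay higher and 4 lower against saline (median log2 change 0.135). Of their probe sets 1 was called higher and 1 lower there. Against wild type 2 lay higher and 10 lower (median -0.35). Of the 30 member probe sets, 7 lay higher and 23 lower in the double knockout against wild type. Against the saline-infused knockout 8 lay higher and 22 lower. The parietal sum was also lower with saline than in wild type. In that comparison 17 member probe sets lay higher and 13 lower, with a median log2 change of 0.11. The part of these sums and of brightness in the members' changes was not tested. The number of arrays limits the precision.

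Promoter sequences are shown first for 4 genes on which the results turn: Mal and Vamp8, which read lowest in the double knockout, Stx3, which read highest there, and Ezr, the membrane linker. Each run is the 250 bases before the annotated start, 5′ to 3′ on the strand of the gene, from RefSeq on mouse GRCm38.p6. Mal lies at chr2:127656696-127656945, Vamp8 at chr6:72390668-72390917, Stx3 at chr19:11819404-11819653 and Ezr at chr17:6782781-6783030, all on the minus strand. Capitals mark matches, on either strand, to a GC box (GGGCGG), a cAMP response element (TGACGTCA) or a TATA box (TATAAA).
Mal: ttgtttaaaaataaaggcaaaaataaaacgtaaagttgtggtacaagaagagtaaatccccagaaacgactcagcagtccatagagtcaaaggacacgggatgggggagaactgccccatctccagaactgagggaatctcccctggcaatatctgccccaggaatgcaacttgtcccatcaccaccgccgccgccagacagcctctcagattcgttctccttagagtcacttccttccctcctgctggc
Vamp8: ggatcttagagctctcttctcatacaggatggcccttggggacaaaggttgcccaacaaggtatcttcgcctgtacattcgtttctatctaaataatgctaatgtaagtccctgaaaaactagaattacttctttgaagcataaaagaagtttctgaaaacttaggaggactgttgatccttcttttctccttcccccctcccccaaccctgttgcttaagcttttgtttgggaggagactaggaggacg
Stx3: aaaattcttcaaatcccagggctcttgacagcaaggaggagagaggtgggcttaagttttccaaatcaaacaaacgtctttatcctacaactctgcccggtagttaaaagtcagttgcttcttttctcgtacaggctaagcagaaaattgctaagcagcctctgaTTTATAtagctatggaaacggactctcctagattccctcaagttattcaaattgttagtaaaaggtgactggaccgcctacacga
Ezr: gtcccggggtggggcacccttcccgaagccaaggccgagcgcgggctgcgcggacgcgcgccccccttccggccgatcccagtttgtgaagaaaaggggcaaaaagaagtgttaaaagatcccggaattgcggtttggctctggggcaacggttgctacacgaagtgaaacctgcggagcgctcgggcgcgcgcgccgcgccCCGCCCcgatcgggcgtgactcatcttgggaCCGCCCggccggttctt
The table held a promoter for 8 of the 10 genes, and Vamp2 and Cttn were not matched. A GC box stood in 4 of the 8, those of Ezr, Rab11a, Lasp1 and Hip1r, against 32.7% of all 32841 promoters of the same length. The promoter of Stx3 held a TATA box, as did 12.4% of all, and that of Rab25 a cAMP response element, as did 1.55%. The Mal and Vamp8 windows held none of the 3 motifs. These are matches of letters in a window and say nothing of binding.

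Across the 5 comparisons, members were called in the 2 that set the double knockout against another group and in none of the 3 others. A call is an adjusted p under 0.05 (limma, Benjamini-Hochberg over 22626 probe sets). Against the saline-infused knockout 7 of 30 probe sets were called, 1 higher and 6 lower, from 6 of the 10 genes. The background there was 3.22% of all probe sets called higher and 2.76% called lower. Among bright probe sets (10000 or more) 33.2% were called lower, and 5 of the 7 bright members were. Against wild type 2 of 30 were called, 1 higher and 1 lower, where 2.02% and 2.12% of all were called; among bright probe sets 19.2% were called lower, and 1 of the 7 bright members was. The saline-infused knockout against wild type called 0 members (background 2.08%), gastrin against saline infusion 0 (1.25%), and the gastrin-infused knockout against wild type 0 (0.11%). At an unadjusted p under 0.05, limma gave 3, 6 and 3 of 30 members in these 3 comparisons (10%, 20% and 10%), where 17.8%, 16% and 11.6% of all probe sets reached it. In the double knockout it gave 11 of 30 against wild type (36.7%, and 19.6% of all). Against the saline-infused knockout it gave 17 (56.7%, and 21.5% of all). The median log2 change of the 30 probe sets was 0.11, -0.12 and -0.08 in the 3 comparisons without the double knockout. It was -0.19 in the double knockout against wild type and -0.26 against the saline-infused knockout. The double-knockout comparisons share their arrays, as do all comparisons with one group in common.

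**Figure D1:**
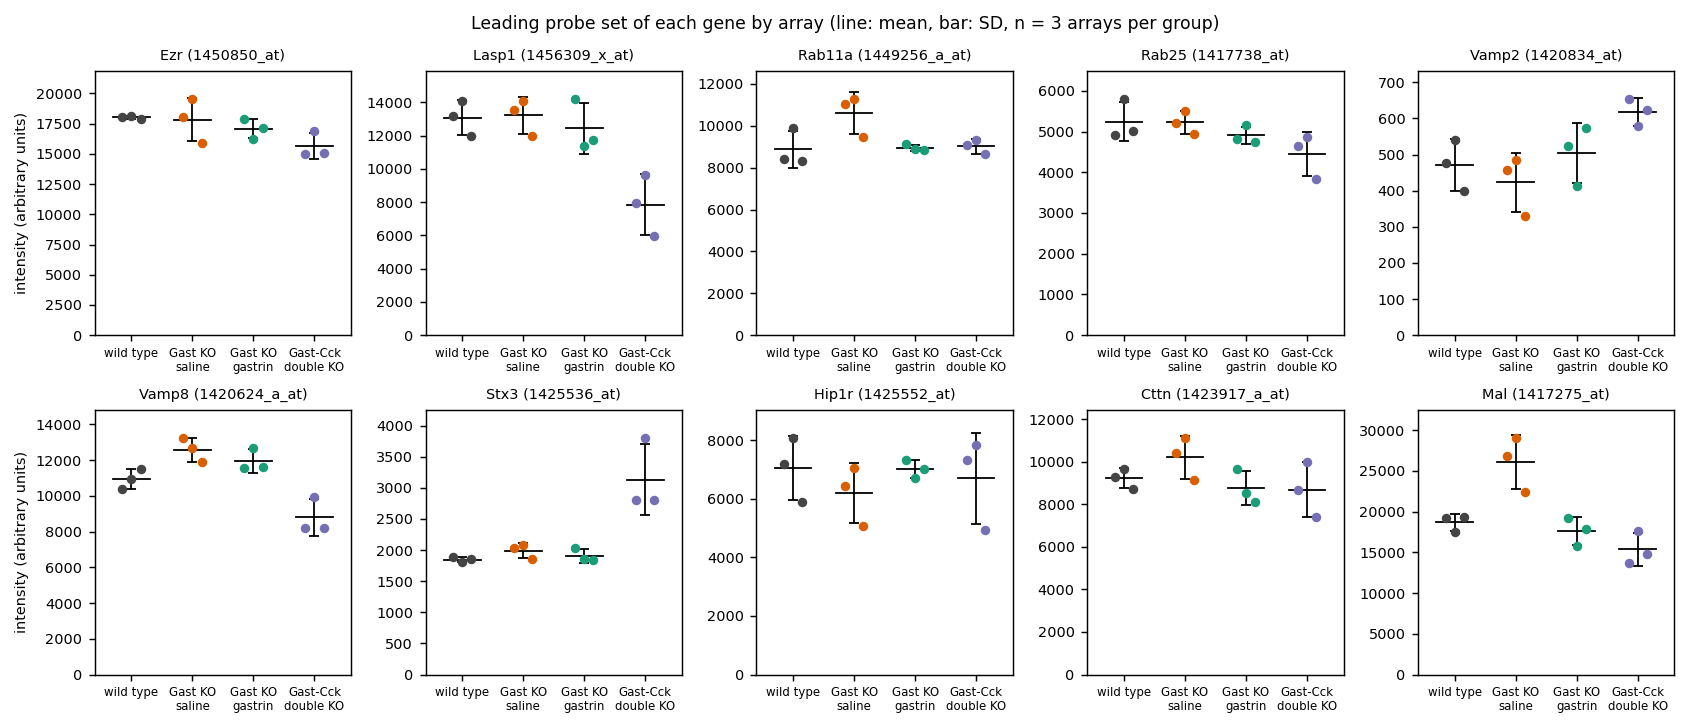
Intensity (arbitrary units) of the leading probe set of each of the 10 genes on each array, with the group mean (line) and SD (bar) of 3 arrays per group. Stx3 sits between 2798 and 3795 in the double knockout and at or below 2074 elsewhere, and Mal is highest in the saline-infused knockout, between 22413 and 29002.

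Mal, a membrane organiser, fell in the double knockout against the saline-infused knockout on both of its probe sets. It encodes a small raft protein of apical membrane sorting that is abundant in parietal cells and other epithelia. Its leading probe set (1417275_at, the brightest by mean) read 19180, 17499 and 19367 in wild type. It read 26801, 29002 and 22413 in the saline-infused knockout, 19211, 15727 and 17922 with gastrin, and 13679, 17589 and 14845 in the double knockout. All 3 saline-infused values lay above all 9 others. Mal fell in the double knockout against the saline-infused knockout (log2 change -0.76 ± 0.13 SE, adjusted p = 0.0131, 3 arrays a side). The other probe set of Mal (1432558_a_at) fell too (-0.61 ± 0.10, adjusted p = 0.013). It read 19445, 22819 and 18731 with saline and 12518, 15020 and 12366 in the double knockout, without overlap. Wild type read 16971, 17470 and 17660 on it, and the gastrin-infused knockout 15199, 14865 and 13354. Against wild type neither passed (-0.29 ± 0.13, adjusted p = 0.257, and -0.39 ± 0.10, adjusted p = 0.071).

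The saline-infused group read highest on both Mal probe sets. Saline infusion in the knockout against wild type gave 0.47 ± 0.13 (adjusted p = 0.0998, 95% interval 0.18 to 0.76) on the leading probe set and 0.22 ± 0.10 (adjusted p = 0.297) on the other. Gastrin against saline infusion gave -0.56 ± 0.13 (adjusted p = 0.0707, interval -0.85 to -0.27) and -0.49 ± 0.10 (adjusted p = 0.0592). These 4 values did not pass, although some did under other processing. The gastrin change passed in 6 of 23 alternatives on 1432558_a_at and in 2 on 1417275_at. The saline change against wild type passed in 2 on 1417275_at (adjusted p = 0.0479 and 0.0394) and in 0 on 1432558_a_at. By the brightest probe set of each, the 9 squamous forestomach markers had a median log2 change of 0.955 for saline-infused against wild type (9 higher, 0 lower). With gastrin against saline infusion it was -1.357 (0 higher, 9 lower). In the double knockout it was -0.756 against saline (1 higher, 8 lower) and 0.379 against wild type (6 higher, 3 lower). The sum over these 9 genes was 7355 to 17634 in wild type, 12224 to 35128 with saline, 5430 to 16671 with gastrin and 6712 to 32662 in the double knockout. The keratin Krt13 read 5391, 1171 and 4370 on the 3 saline arrays, and the array with 1171 was the one with the highest Mal value. In the double knockout Krt13 read 4929, 547 and 4986. The keratin Krt5 read 2544, 316 and 3149 with saline and 1164, 428 and 1023 in the double knockout. The part of squamous tissue in the Mal values was not tested.

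Mal is brighter than most probe sets, and its fall in the double knockout was smaller under normalizations that act along the whole range of intensity. Quantile normalization gave -0.44 (adjusted p = 0.0526) and -0.36 (adjusted p = 0.0253) for the 2 probe sets, and cyclic loess, an alternative chosen after the data were seen, gave -0.49 (adjusted p = 0.0423) and -0.36 (adjusted p = 0.0507). The genes whose profile over the 12 arrays was most like that of the leading probe set were Gal3st1, Arhgap27 and Dgat2. Their root mean square difference from Mal was 0.10 on the centred log2 scale for each.

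Of the SNARE genes, Stx3 rose in the double knockout against both wild type and the saline-infused knockout, on 1 of 3 probe sets, and Vamp8 fell against the saline-infused knockout. Stx3 encodes syntaxin 3, the apical target-membrane SNARE of many epithelia and a component of parietal tubulovesicles. Its leading probe set (1425536_at) read 1889, 1800 and 1850 in wild type, 2035, 2074 and 1848 with saline, and 2031, 1849 and 1833 with gastrin. In the double knockout it read 2798, 3795 and 2802. The double-knockout values did not overlap with any other group, and the other 3 groups overlapped. The log2 change was 0.75 ± 0.12 against wild type (adjusted p = 0.0144, interval 0.48 to 1.01) and 0.64 ± 0.12 against the saline-infused knockout (adjusted p = 0.0176). The values were 0.77 and 0.64 under quantile normalization and 0.77 and 0.63 under cyclic loess, and all 4 passed. Without saline-infused replicate 1 or 3 the rise against that group just missed (adjusted p = 0.0503 and 0.0513).

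The other probe sets of Stx3 did not show the rise. On 1426151_a_at the group means were 406 ± 51 (SD, n = 3) in wild type, 330 ± 110 with saline, 299 ± 7.77 with gastrin and 327 ± 64.8 in the double knockout (-0.32 ± 0.25 against wild type, adjusted p = 0.539). On 1425530_a_at all 4 means lay between 101 and 132, near the noise. The platform annotation ties each of the 3 to a different transcript record. Cfi, Ywhab and Rab6a had the profiles most like the leading Stx3 probe set, with differences of 0.097, 0.10 and 0.10.

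Vamp8 encodes a vesicle SNARE of regulated secretion in exocrine and epithelial cells. Its single probe set (1420624_a_at) read 10377, 10926 and 11486 in wild type, 13219, 12656 and 11885 with saline, and 11534, 12690 and 11620 with gastrin. It read 8226, 9958 and 8182 in the double knockout, below every other array. It fell against the saline-infused knockout (-0.52 ± 0.09, adjusted p = 0.0152) and read -0.32 ± 0.09 against wild type (adjusted p = 0.09). The fall from saline was -0.33 (adjusted p = 0.0593) under quantile normalization and -0.32 (adjusted p = 0.0934) under cyclic loess. Rhog, Brwd1 and Aldoa had the most similar profiles (differences of 0.080, 0.087 and 0.088).

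Vamp2, the vesicle SNARE of neurons and neuroendocrine cells that was also found on tubulovesicles, was dim. Its leading probe set (1420834_at) read 476, 540 and 398 in wild type, 457, 484 and 331 with saline, 523, 412 and 575 with gastrin, and 654, 578 and 624 in the double knockout. The double-knockout arrays were the highest, 578 against 575 at the nearest. The change was 0.56 ± 0.18 against the saline-infused knockout (adjusted p = 0.103) and 0.40 ± 0.18 against wild type (adjusted p = 0.258), neither past the test. The dimmer probe set (1420833_at) lay on the same side, at 1.21 ± 0.51 (adjusted p = 0.215) and 0.95 ± 0.51 (adjusted p = 0.354). Snap25, a defining SNARE of nerve, read between 31 and 151 on all arrays, mostly within the noise. The 8 nerve markers summed to between 1675 and 2340 in the double knockout and between 1913 and 2028 with saline. They summed to between 1876 and 2232 in wild type and between 2005 and 3153 with gastrin. Of their 15 probe sets, 1 was called higher in the double knockout against saline and 0 lower. The part of nerve in the Vamp2 values was not tested.

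**Figure D2:**
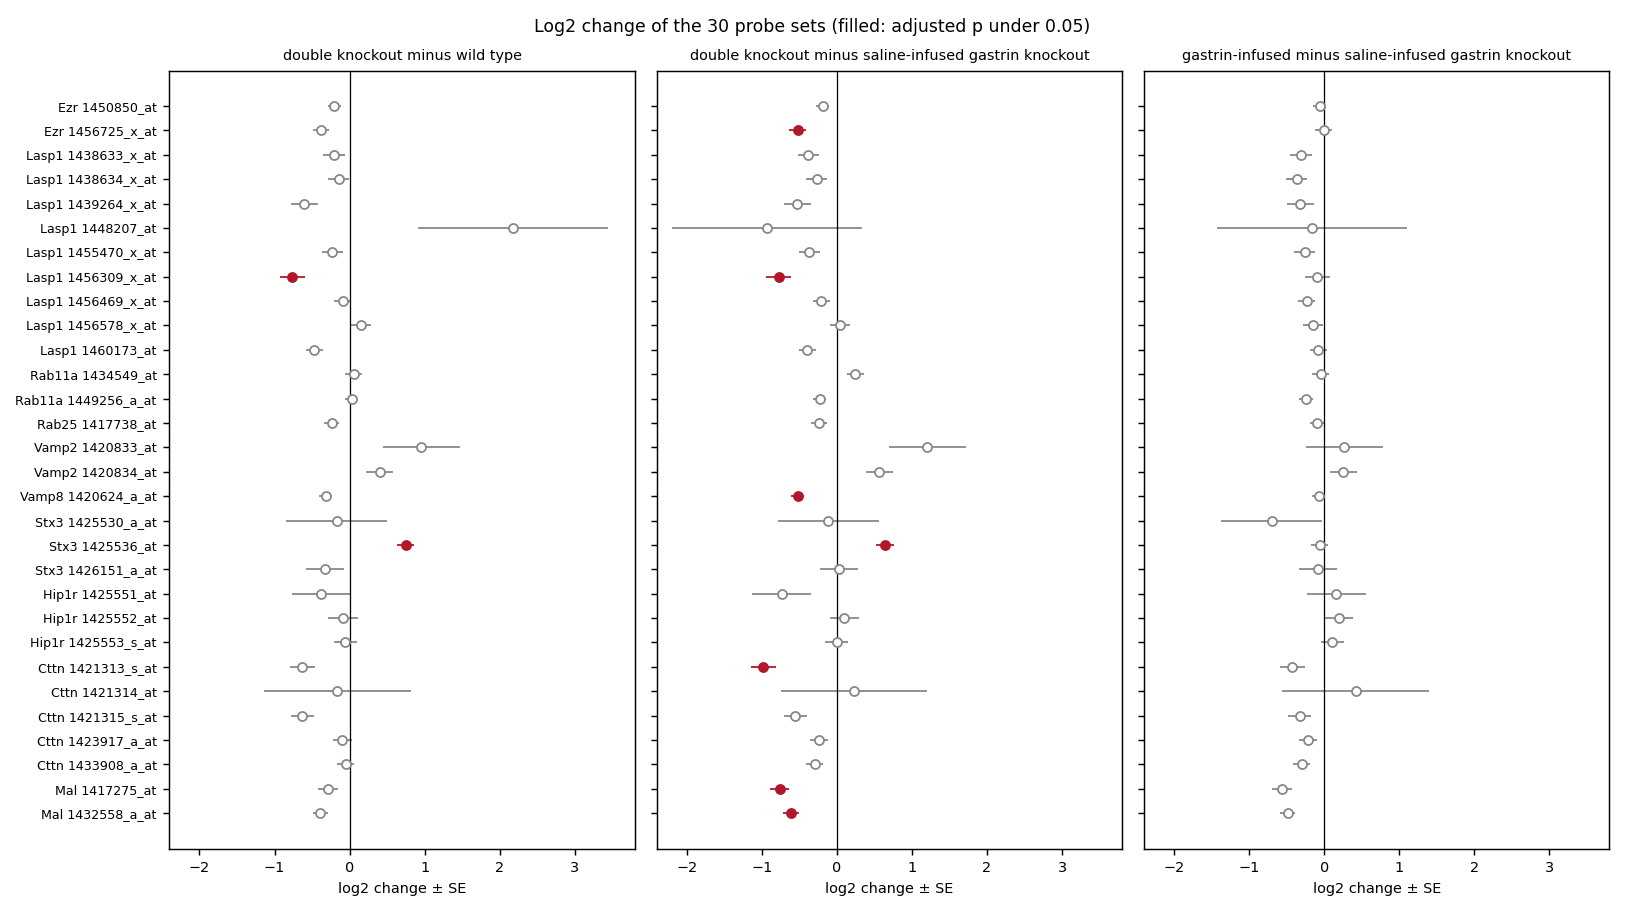
Log2 change with SE of each of the 30 probe sets in both double-knockout comparisons and in gastrin against saline infusion. Filled points passed at an adjusted p under 0.05: 2 against wild type, 7 against the saline-infused knockout and 0 for gastrin infusion.

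Neither Rab gene among the members was called in any comparison. Rab11a, which marks recycling endosomes and tubulovesicles, read 8416, 9896 and 8307 in wild type on its leading probe set (1449256_a_at). It read 11061, 11283 and 9450 with saline, 9111, 8871 and 8840 with gastrin, and 9100, 9306 and 8640 in the double knockout. The saline-infused arrays were the highest on average and overlapped with wild type, but lay above all gastrin-infused and double-knockout arrays. The saline-infused knockout differed from wild type by 0.26 ± 0.09 (adjusted p = 0.185, interval 0.05 to 0.46) and gastrin from saline infusion by -0.24 ± 0.09 (adjusted p = 0.238). The second probe set (1434549_at) went the other way in the first of these, at -0.19 ± 0.11 (adjusted p = 0.437). The double knockout differed from saline by -0.23 ± 0.09 on the leading probe set (adjusted p = 0.182). On the second it differed by 0.24 ± 0.11 (adjusted p = 0.261).

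Rab25, the epithelial relative of Rab11a, had 1 probe set (1417738_at). It read 4916, 5798 and 5006 in wild type, 5215, 5512 and 4944 with saline, 4813, 5153 and 4753 with gastrin, and 4656, 4857 and 3825 in the double knockout. The double knockout read lowest on average and its highest array overlapped with the gastrin group. Its change was -0.24 ± 0.10 both against wild type (adjusted p = 0.246) and against the saline-infused knockout (adjusted p = 0.227). Between wild type and the saline-infused knockout the change was -0.002 ± 0.10 (interval -0.24 to 0.23).

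Ezr encodes ezrin, which ties the apical membrane to actin and is needed for the expansion of that membrane in parietal cells. Its leading probe set (1450850_at) read 18062, 18123 and 17843 in wild type, 18043, 19531 and 15930 with saline, 17851, 16254 and 17140 with gastrin, and 15000, 16882 and 15026 in the double knockout. The double knockout overlapped with both infused groups and lay below wild type. No comparison passed, and the double knockout differed by -0.21 ± 0.09 from wild type (adjusted p = 0.225) and by -0.19 ± 0.09 from the saline-infused knockout (adjusted p = 0.246).

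The other Ezr probe set (1456725_x_at) fell against the saline-infused knockout (-0.52 ± 0.11, adjusted p = 0.0288). It read 19153, 19778 and 16771 with saline and 12083, 13654 and 13009 in the double knockout, without overlap. On this array type the suffix x marks a probe set some of whose probes may bind other transcripts. Under quantile normalization the fall was -0.32 (adjusted p = 0.0367), and under cyclic loess it was -0.27 (adjusted p = 0.102). Between wild type and the saline-infused knockout, the leading Ezr probe set read -0.02 ± 0.09 (interval -0.21 to 0.17) and the other 0.14 ± 0.11 (interval -0.11 to 0.39). In that comparison Atp4a fell by 0.66 ± 0.11 on the log2 scale (adjusted p = 0.0256). Atp4b read -0.38 ± 0.09 and did not pass (adjusted p = 0.0681). The difference between the Ezr changes and those of Atp4a and Atp4b was not tested. Mrps30, Capzb and Vta1 had the profiles most like Ezr (differences of 0.051, 0.059 and 0.061).

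Lasp1, for an actin-binding protein that is phosphorylated when parietal cells are stimulated, had 9 probe sets. The leading one (1456309_x_at) read 13165, 14092 and 12005 in wild type, 13567, 14091 and 11990 with saline, 14206, 11401 and 11755 with gastrin, and 7946, 9614 and 5971 in the double knockout. The double knockout lay below all other arrays. It fell by 0.76 ± 0.17 on the log2 scale against wild type (adjusted p = 0.0422) and by 0.78 ± 0.17 against the saline-infused knockout (adjusted p = 0.0318). With quantile normalization the changes were -0.63 (adjusted p = 0.0334) and -0.60 (adjusted p = 0.0315), and with cyclic loess -0.58 (adjusted p = 0.0386) and -0.57 (adjusted p = 0.0344). Without any single wild-type array the call against wild type was lost, at adjusted p between 0.0716 and 0.118. It was also lost without double-knockout replicate 1 (0.0993) or 3 (0.0805), and without any one of the infused arrays (0.0506 to 0.0645). With the Gapdh 3′/5′ ratio as a covariate it was -0.73 (adjusted p = 0.0667), and with wild-type replicates 1 and 2 both left out it was -0.64 (adjusted p = 0.378). In all, this call held in 9 of 23 alternatives, and that against the saline-infused knockout in 16.

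Of the 9 Lasp1 probe sets, 8 lay on the lower side in the double knockout against saline and 1 was called. The next brightest (1460173_at), which carries no such suffix, read 9542, 10626 and 7785 there, below every other array (-0.47 ± 0.11 against wild type, adjusted p = 0.0525, and -0.39 ± 0.11 against saline, adjusted p = 0.0806). The other 7 ranged from -0.93 to 0.04 against saline. All 9 were on the lower side with gastrin against saline infusion, from -0.36 to -0.08, and none passed (adjusted p between 0.248 and 0.994). Eif4e2, Selenow and Arpc4, the last a subunit of the actin-nucleating Arp2/3 complex, had the profiles most like the leading probe set (differences of 0.096, 0.12 and 0.12).

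Cttn encodes cortactin, which binds the Arp2/3 complex and branched actin. Its leading probe set (1423917_a_at) read 9275, 9650 and 8714 in wild type, 10411, 11097 and 9115 with saline, 9645, 8528 and 8118 with gastrin, and 8670, 9970 and 7398 in the double knockout. The 4 groups overlapped and no comparison passed (-0.24 ± 0.12 for the double knockout against saline, adjusted p = 0.305).

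Another probe set of Cttn (1421313_s_at) did fall. It read 1308, 1342 and 1337 with saline and 610, 804 and 624 in the double knockout (-0.98 ± 0.17, adjusted p = 0.0137), a 1.97-fold difference without overlap. In wild type it read 976, 856 and 1363, and with gastrin 1055, 963 and 954. Neither normalization shrank this fall (-1.04 by quantile and -1.03 by cyclic loess, adjusted p = 0.0102 and 0.0122). Probe set 1421315_s_at gave -0.63 ± 0.15 against wild type (adjusted p = 0.0561) and -0.55 ± 0.15 against saline (adjusted p = 0.071). On 1433908_a_at the 3 saline-infused values, between 7939 and 9031, were the highest on average, and no comparison passed (-0.30 ± 0.12 for the double knockout against saline, adjusted p = 0.176). The dimmest, 1421314_at, lay within the noise on 10 of 12 arrays. In all, 4 of 5 probe sets were on the lower side against saline. 2410004B18Rik, Vsig2 and Mrps17 had the profiles most like the leading probe set (differences of 0.048, 0.055 and 0.057).

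Hip1r, a clathrin- and actin-binding protein that is abundant in parietal cells, read 7196, 8069 and 5881 in wild type on its leading probe set (1425552_at). It read 6451, 7060 and 5059 with saline, 7316, 6717 and 7010 with gastrin, and 7334, 7834 and 4922 in the double knockout. The groups overlapped throughout, and the changes in the 5 comparisons lay between -0.19 and 0.19 with an SE of 0.20. The 95% interval reached down to -0.63 for saline-infused against wild type and up to 0.64 for gastrin against saline. Changes up to these bounds were not excluded in those comparisons. On 1425553_s_at the 4 group means lay between 3237 and 3490 and no comparison passed. On 1425551_at the double knockout differed from the saline-infused knockout by -0.73 ± 0.40 (adjusted p = 0.332).

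The calls of the double knockout against the saline-infused knockout depended on single arrays. Without double-knockout replicate 1 the 6 lower calls were all lost, with adjusted p between 0.0501 and 0.0988, and only Stx3 was called. Without saline-infused replicate 1, 3 were called, Cttn and both probe sets of Mal. Fitted on the 2 groups alone, the comparison called 0 of 30 members (limma, smallest adjusted p = 0.0526), and of all probe sets 208 against 1352.

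**Figure D3:**
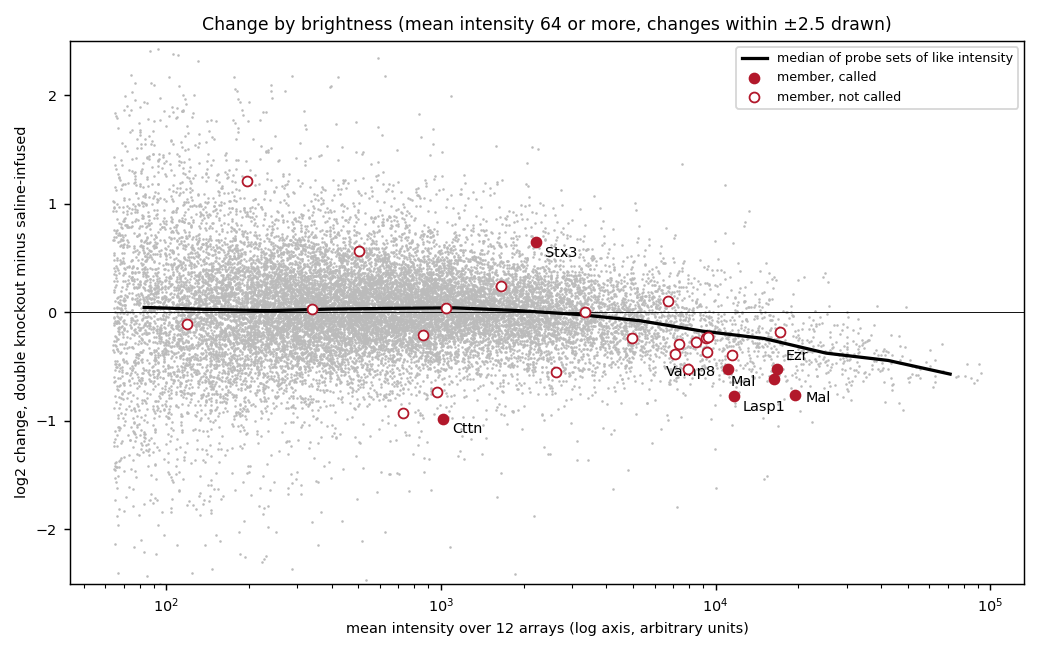
Log2 change in the double knockout against the saline-infused knockout plotted against mean intensity over 12 arrays (log axis) for probe sets of mean intensity 64 or more; the line joins medians of probe sets of like intensity. The line falls below 0 for bright probe sets, where the called probe sets of Mal, Vamp8, Lasp1 and Ezr lie below it, while Stx3 lies above 0 and Cttn at -0.98.

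Wild-type arrays disagreed in single probe sets. One Lasp1 probe set (1448207_at) read 70, 5 and 1379 in wild type, and between 443 and 1191 on the 9 other arrays. One Hip1r probe set (1425551_at) read 752, 448 and 1712 in wild type and between 519 and 1212 elsewhere. In both, replicate 3 was far above replicates 1 and 2. Gapdh control probes at the 3′ and 5′ ends, whose ratio follows RNA quality and labelling, gave a ratio of 1.51, 2.00 and 0.983 on those arrays, and between 1.01 and 1.32 elsewhere. Its part in these values was not tested. Without wild-type replicate 3 that Lasp1 probe set passed against wild type in 3 comparisons (adjusted p = 0.015 for the saline-infused, 0.0214 for the gastrin-infused and 0.0164 for the double knockout), with both remaining wild-type arrays within the noise, so no fold is given.

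**Figure D4:**
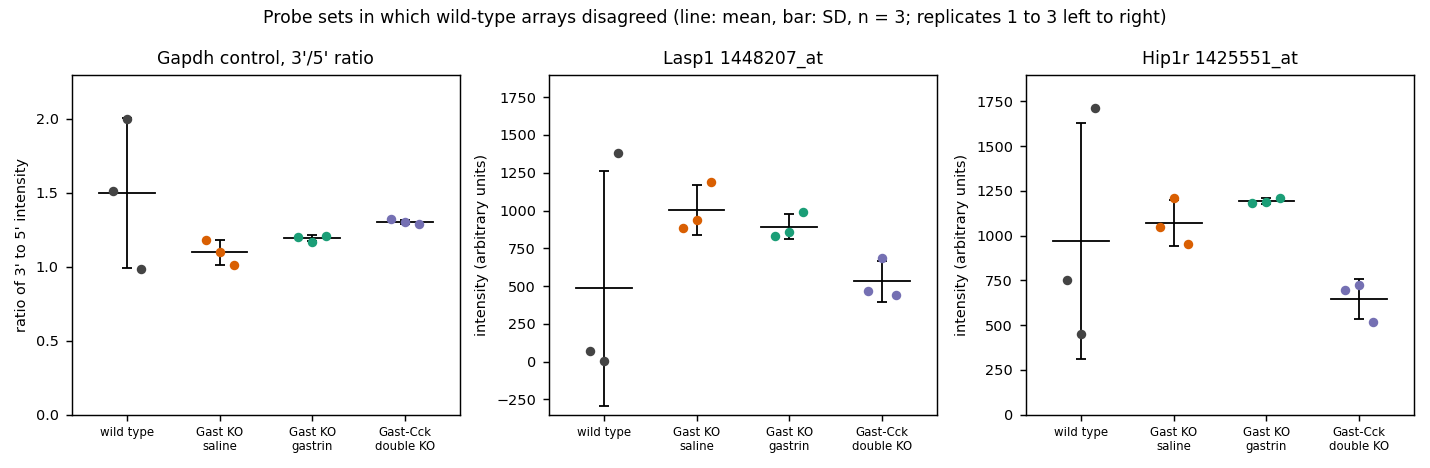
Gapdh 3′ over 5′ ratio and intensity (arbitrary units) of 1 Lasp1 and 1 Hip1r probe set on each array, with group mean (line) and SD (bar), n = 3, and replicates 1 to 3 from left to right. In wild type the Gapdh ratio is 1.51, 2.00 and 0.983, and both probe sets are highest on replicate 3, at 1379 and 1712.

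Other genes of the same machinery were taken from 4 lists. Of 24 other SNARE genes and regulators measured, 0 were called with gastrin against saline infusion or for saline infusion against wild type. Nsf, the ATPase that takes SNARE complexes apart, rose in the double knockout against wild type on 1 of 2 probe sets (432 ± 62.7 against 166 ± 89.7, 2.83-fold, adjusted p = 0.042). Snap23, the partner of syntaxins outside nerve, fell against the saline-infused knockout on 1 of 3 (170 ± 23.7 against 265 ± 18.6, -0.65 ± 0.15, adjusted p = 0.0421). That is 1 of 48 probe sets in each, 2.08%, under the 4.14% and 5.98% of all probe sets called in these comparisons.

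Among 20 other Rab genes and partners, 4 rose and 0 fell in the double knockout against wild type, and 5 rose and 1 fell against the saline-infused knockout. These were 11.1% and 15.6% of the 45 probe sets, against 4.14% and 5.98% of all. The share called was larger among brighter probe sets. Fitted alone, the 11313 probe sets at or above the median intensity gave 574 higher and 725 lower calls against wild type. Against saline they gave 923 and 899. The shares of the 4 lists were not set against probe sets of like intensity. Rab10, a GTPase of basolateral and secretory traffic, rose on 2 of 3 probe sets, from 924 ± 94.4 with saline to 2102 ± 172 on one (1.19 ± 0.13, adjusted p = 0.00314). Against wild type that probe set gave 0.98 ± 0.13 (adjusted p = 0.00754). Rab5c, of early endosomes, rose from 1450 ± 133 in wild type to 3562 ± 651 (1.29 ± 0.17, adjusted p = 0.00802). Rab4a, of fast recycling, read 613 ± 122 in wild type, rose to 1075 ± 138 with saline (0.82 ± 0.15, adjusted p = 0.032) and to 1687 ± 47.9 with gastrin (1.48 ± 0.15, adjusted p = 0.0101), on 1 of 2 probe sets. In the double knockout it fell to 590 ± 31.8 (-0.86 ± 0.15 against saline, adjusted p = 0.015). Rab11fip5, a partner of the Rab11 proteins, rose with gastrin against saline infusion, from 62.3 ± 29.5 to 208 ± 47.4 (1.81 ± 0.34, adjusted p = 0.043). As 2 of its 3 saline-infused values lay within the noise, that fold depends on the floor.

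Among 17 genes of ezrin relatives, their partners and apical organisers, 1 rose and 1 fell in the double knockout against wild type, and 2 rose and 1 fell against the saline-infused knockout (13.9% and 11.1% of 36 probe sets, against 4.14% and 5.98% of all). Slc9a3r1, the PDZ scaffold NHERF1 that binds ezrin, rose on 1 of 3 probe sets (2801 ± 262 to 4622 ± 387, 0.72 ± 0.12, adjusted p = 0.0188). Slc9a3r2, its relative NHERF2, fell on 4 of 6, most on 1439368_a_at (2600 ± 168 to 1448 ± 153, -0.85 ± 0.10, adjusted p = 0.00543). These 4 were all the lower calls of this list against wild type. Against the saline-infused knockout Anxa2, a membrane- and actin-binding annexin, fell on 2 of 3 (13158 ± 960 to 6843 ± 2223, -0.99 ± 0.25, adjusted p = 0.0495). The subunits of protein kinase A, Prkaca (0.71 ± 0.15, adjusted p = 0.0264) and Prkar1a (0.53 ± 0.10, adjusted p = 0.0199, 1 of 2), rose there. Prkar1a fell from wild type to the saline-infused knockout (-0.48 ± 0.10, adjusted p = 0.0473).

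Of 34 genes of actin assembly and the endocytic coat, 2 rose and 6 fell in the double knockout against wild type, 12% of 75 probe sets against 4.14% of all. Against the saline-infused knockout 1 rose and 5 fell (9.33% against 5.98%). Their median change by the brightest probe set was -0.17 and -0.15. It was also -0.17 with gastrin against saline infusion, 0.04 for saline-infused against wild type and -0.08 for gastrin-infused against wild type. Myh9, the heavy chain of non-muscle myosin IIA, changed most: 1420172_at read 10184 ± 516 in wild type, 8751 ± 515 with saline and 2531 ± 281 in the double knockout (-2.01 ± 0.09, adjusted p = 2.25e-05, and -1.79 ± 0.09, adjusted p = 9.43e-05). Of its 4 probe sets, 2 fell and the other 2 read 0.66 and 0.92 against wild type (adjusted p = 0.141 and 0.118), so its probe sets disagreed. Arpc4, of the Arp2/3 complex, fell against wild type on 1 of 2 (3880 ± 330 to 2332 ± 393, -0.75 ± 0.17, adjusted p = 0.0477). Ap2b1, of the clathrin adaptor AP-2, rose on 1 of 2 (1953 ± 185 to 3347 ± 656, 0.76 ± 0.15, adjusted p = 0.0296). The clathrin light chain gene Clta rose on 1 of 2 as well, with a wide spread in wild type (1360 ± 716 to 3310 ± 94.2, 1.42 ± 0.33, adjusted p = 0.0468). The light chain gene Cltb fell (-0.59 ± 0.11, adjusted p = 0.0242, 1 of 2). Dbn1, for drebrin, an actin-binding protein of the parietal apical pole, fell in the saline-infused knockout on both of its probe sets (2135 ± 313 to 1213 ± 80.3, -0.81 ± 0.16, adjusted p = 0.0406, and -1.08 ± 0.22, adjusted p = 0.0461). With gastrin against saline it read 0.76 and 1.02 (adjusted p = 0.0575 and 0.0649), and in the double knockout it fell on 1 of 2 (-1.24 ± 0.22 against wild type, adjusted p = 0.0222). One probe set of Hip1, the relative of Hip1r, passed in the saline-infused knockout with all wild-type and 2 of 3 saline values within the noise, so no fold is given.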

How the data were processed

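Each deposited value is a linear intensity of one probe set, a whole number that can be negative. How the authors summarised, scaled or background-corrected these intensities is not given in the sources used here. The table lists 22690 probe sets, and its 64 controls took no part. Values under 16 were raised to 16, log2 values taken and 1 mean per group fitted to the 12 arrays together with limma (version 3.58.1, R 4.3.3), whose moderated variances had 1.1 prior beside 8 residual degrees of freedom. All 5 comparisons are contrasts of that fit, and ± after a log2 change is its standard error. Adjusted p-values are Benjamini-Hochberg over 22626 probe sets. The fit was tested on simulated data. Symbols come from the platform annotation and promoters from RefSeq. Python 3.11.15 with matplotlib 3.10.9 drew the plots. Members and lists were chosen with earlier results of these data known. All members were named. Of the lists, genes called in a comparison were named, up to the 4 largest changes per list and direction, and for each called member the 3 most similar profiles among probe sets at or above the median mean intensity, by root mean square difference.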

Additional observations from a re-analysis of the deposited data

How the results depend on the processing

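The counts of called members were recomputed under 23 alternatives, of which cyclic loess and leaving out both wild-type arrays of high Gapdh ratio were chosen after seeing the data. No called change reversed. For saline infusion against wild type, the count of 0 became 1 with only probe sets at or above the median intensity and 1 with limma-trend. With gastrin against saline infusion, 0 became 1 under quantile normalization, floor 64 and cyclic loess, and 2 with the intensity filter and with limma-trend. In the double knockout against wild type, 2 became 7 with the intensity filter, 8 with limma-trend, 0 with the 2 groups alone and 0 with both of those wild-type arrays left out. Against the saline-infused knockout, 7 became 0 with the 2 groups alone. Leaving out 1 array gave 0 to 1, 0 to 1, 1 to 5, 1 to 8 and 0 to 1 calls, in the order saline-infused against wild type, gastrin against saline, double knockout against wild type, double knockout against saline, and gastrin-infused against wild type. With the replicate number as a block (replicate block), the counts were 0, 0, 2, 7 and 0, as without it. No pairing of arrays by number was evident: 5 of 18 same-numbered pairs correlated over 0.1 (range -0.357 to 0.506), and arrays correlated best with their own number in 9 of 36 cases. With 3 arrays per group these correlations cannot exclude a pairing. Over all probe sets the calls ranged from 22 to 827 (470 as reported), 20 to 732 (282), 43 to 1340 (936), 208 to 1822 (1352) and 3 to 78 (25), in the same order. The lowest came with the 2 groups alone, a fit with fewer arrays to estimate the spread. The cause of these shifts was not tested. Of 3430 recomputed member changes, 46 lost a call, 44 gained one and 151 uncalled ones changed sign.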
